A study of Mus musculus with 8 samples.

Results

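The regions described here were the promoters of isolated long noncoding RNA (lncRNA) genes, taken as the 1 kb on either side of the transcription start site (TSS). A gene qualified when it lay on an autosome, was typed lincRNA, antisense, processed_transcript or lncRNA in GENCODE release M21, and had its TSS over 5 kb from the TSS of every protein-coding gene. The rule found 6860 such promoters among 29682 autosomal promoters of lncRNA and protein-coding genes. Of these, 4587 belonged to lincRNA genes, 1863 to antisense genes and 410 to processed_transcript genes. The TSS lay outside every protein-coding gene for 4981 members, within such a gene on the opposite strand for 1758 and on the same strand for 121. The windows of 334 members overlapped that of another member, so the 6860 promoters formed 6692 separate groups of windows. The rule used position and gene type only, and no acetylation value.

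H3K27ac peak lists of 4 mouse breast tumors were read to compare active chromatin with and without a transgene for thymic stromal lymphopoietin (TSLP). TSLP is an epithelial cytokine that acts on T cells and other immune cells. Control tumors came from 2 PyMT;Rag1KO mice and test tumors from 2 K14-TSLPtg;PyMT;Rag1KO mice, all on the Balb/c background. The PyMT oncogene is driven by the MMTV promoter in mammary epithelium, TSLP by the keratin 14 promoter of skin and basal epithelium. Rag1KO mice make no T or B cells of their own, and mice of both groups had received CD4+ T cells by injection when 4 weeks old, with tumors taken at terminal size. In the sample titles the word tumor is used for controls and the word cyst for test mice. Whole pieces of tumor were used, so fewer cells of a type and less acetylation per cell cannot be told apart. With 2 tumors per group the smallest two-sided p of an exact permutation test is 0.333, and no comparison of the groups can pass 0.05.

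LncRNAs are transcripts that are not translated into protein. Some act in the nucleus on chromatin or splicing, some are processed into microRNAs (miRNAs) or small nucleolar RNAs (snoRNAs), and for many the act of transcription or the DNA element itself is what matters to a neighboring gene. Acetylation of histone H3 at lysine 27 (H3K27ac) marks nucleosomes beside active promoters and enhancers. Since many lncRNA genes start beside a protein-coding gene and share its open chromatin, those starting far away are easier to read alone. Distance was measured to the 5′ end of each coding gene. Measured to the start of every transcript of coding genes, 6190 of the 6860 members still lay over 5 kb away.

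The promoters below, 300 bases each from 250 before the TSS through the first 50 transcribed, are examples of the patterns found. They were read from the GRCm38.p6 assembly (mm10) at GENCODE starts on the strand of the gene. Gm20750 and Gm26535 carried peaks only in control tumors, Sap30bpos and Gm32351 only in test tumors, and Lockd in every tumor. Capitals mark matches on either strand to letters bound by known factors, namely the TATA box TATAAA, the GC box core GGGCGG, the CCAAT box, the AP-1 site TGANTCA, the cAMP response element TGACGTCA, the E-box CACGTG, the STAT site TTCNNNGAA and the ETS site CCGGAAGT. Gm20750 and Sap30bpos held none of these letters in the window shown.
Gm20750, chr3:52927617-52927916, minus strand: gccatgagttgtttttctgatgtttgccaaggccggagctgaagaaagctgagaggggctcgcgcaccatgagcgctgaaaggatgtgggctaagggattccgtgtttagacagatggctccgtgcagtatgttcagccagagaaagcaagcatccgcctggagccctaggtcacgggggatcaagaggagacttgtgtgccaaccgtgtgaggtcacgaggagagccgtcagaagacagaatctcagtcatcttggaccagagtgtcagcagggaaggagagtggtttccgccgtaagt
Gm26535, chr10:37337236-37337535, plus strand: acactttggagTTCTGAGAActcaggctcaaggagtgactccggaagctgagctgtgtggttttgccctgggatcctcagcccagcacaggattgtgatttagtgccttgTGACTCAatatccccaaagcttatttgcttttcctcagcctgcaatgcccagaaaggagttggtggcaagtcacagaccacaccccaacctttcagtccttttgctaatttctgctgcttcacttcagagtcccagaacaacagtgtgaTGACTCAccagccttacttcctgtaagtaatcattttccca
Sap30bpos, chr11:115952056-115952355, minus strand: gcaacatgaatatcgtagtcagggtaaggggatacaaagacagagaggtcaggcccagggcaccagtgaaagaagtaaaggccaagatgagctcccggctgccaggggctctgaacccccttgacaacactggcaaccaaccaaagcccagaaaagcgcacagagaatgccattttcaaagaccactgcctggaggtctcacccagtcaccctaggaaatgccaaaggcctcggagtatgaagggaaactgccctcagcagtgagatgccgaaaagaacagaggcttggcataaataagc
Gm32351, chr13:94702669-94702968, minus strand: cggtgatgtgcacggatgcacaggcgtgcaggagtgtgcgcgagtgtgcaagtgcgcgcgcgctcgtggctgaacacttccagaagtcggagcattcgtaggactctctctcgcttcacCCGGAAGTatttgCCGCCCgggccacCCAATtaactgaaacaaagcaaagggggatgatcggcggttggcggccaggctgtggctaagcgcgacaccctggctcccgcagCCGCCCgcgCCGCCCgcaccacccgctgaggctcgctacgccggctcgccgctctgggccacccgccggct
Lockd, chr6:134928842-134929141, plus strand: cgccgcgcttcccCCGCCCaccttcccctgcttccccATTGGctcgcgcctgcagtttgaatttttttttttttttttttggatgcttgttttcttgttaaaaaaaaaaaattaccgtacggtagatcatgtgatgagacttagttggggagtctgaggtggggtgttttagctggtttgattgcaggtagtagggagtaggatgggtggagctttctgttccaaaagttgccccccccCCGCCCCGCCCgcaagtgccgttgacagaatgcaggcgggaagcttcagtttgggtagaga

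A CpG-rich promoter was defined as one with at least 55% G+C and a ratio of observed to expected CpG of at least 0.6 over these 300 bases. Gm32351 had 67.0% G+C and 35 CpGs, with 3 matches to GGGCGG. Gm20750 had 55% G+C and 13 CpGs. Gm26535 had a single CpG and 2 matches to TGANTCA. A match of letters is a description and not a measured binding site.

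Several members are the primary transcripts of miRNAs. The mature sequences of the miRNAs inside the acetylated hosts described below are given from RefSeq, with the seed (bases 2 to 8, which pair with target messages) in capitals. The 5 let-7 sequences shared the seed GAGGUAG, miR-17-5p and miR-20a-5p shared AAAGUGC, and miR-29b-3p and miR-29c-3p shared AGCACCA.
miR-200c-3p: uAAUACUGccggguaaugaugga
miR-141-3p: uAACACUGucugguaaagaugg
miR-205-5p: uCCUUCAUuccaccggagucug
let-7a-5p: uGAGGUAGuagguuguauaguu
let-7b-5p: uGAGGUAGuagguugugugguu
let-7c-5p: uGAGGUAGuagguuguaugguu
let-7d-5p: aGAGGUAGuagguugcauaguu
let-7f-5p: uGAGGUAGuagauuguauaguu
miR-17-5p: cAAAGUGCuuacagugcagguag
miR-20a-5p: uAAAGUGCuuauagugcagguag
miR-29b-3p: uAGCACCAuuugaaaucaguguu
miR-29c-3p: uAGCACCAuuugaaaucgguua
miR-155-5p: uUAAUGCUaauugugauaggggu
miR-9-5p: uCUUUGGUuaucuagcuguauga

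The depth of sequencing behind the lists is unknown. The control lists held 69861 and 67850 intervals and the test lists 65763 and 59762, covering between 2.57% and 2.92% of the autosomes. As a check of the tissue, promoters of luminal epithelial markers carried peaks at 11 or 12 of 12 genes in every tumor, and those of hepatocyte and neuron markers at 0 of 8. Of 12 fibroblast markers, promoters of 5, 5, 4 and 0 had a peak in control 1, control 2, test 1 and test 2, and of 10 endothelial markers 4, 3, 2 and 0. Of 12 myeloid markers the numbers were 9, 8, 7 and 6, and of 12 T cell markers 4, 5, 4 and 2, with Cd3e, Cd3d, Cd3g and Cd4 at 0 in all. Test 2 thus had the fewest intervals and no fibroblast, endothelial or myoepithelial marker with a promoter peak.

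The first comparison asked how many isolated lncRNA promoters were acetylated. In the order control 1, control 2, test 1 and test 2, which is kept wherever 4 values of a member or group are given without tumor names, a peak overlapped 1322 (19.3%), 1322 (19.3%), 1266 (18.5%) and 1199 (17.5%) members. Isolated protein-coding promoters, 16684 whose TSS lay over 5 kb from that of every other protein-coding gene, had a peak in 49.1%, 49.5%, 49.7% and 47.2%. The lncRNA share was lower in each of the 4 tumors, with a mean difference of -30.3 ± 0.673 percentage points (SD, n = 4, exact sign-flip permutation p = 0.125, the smallest possible with 4 tumors). The 2015 lncRNA promoters within 5 kb of a coding TSS, which the distance rule left out, had a peak in 57.2% to 60.4%. The peaks at members seldom reached a coding promoter at the 5′ end of a gene, which happened at 14, 10, 9 and 7 members.

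**Figure D1:**
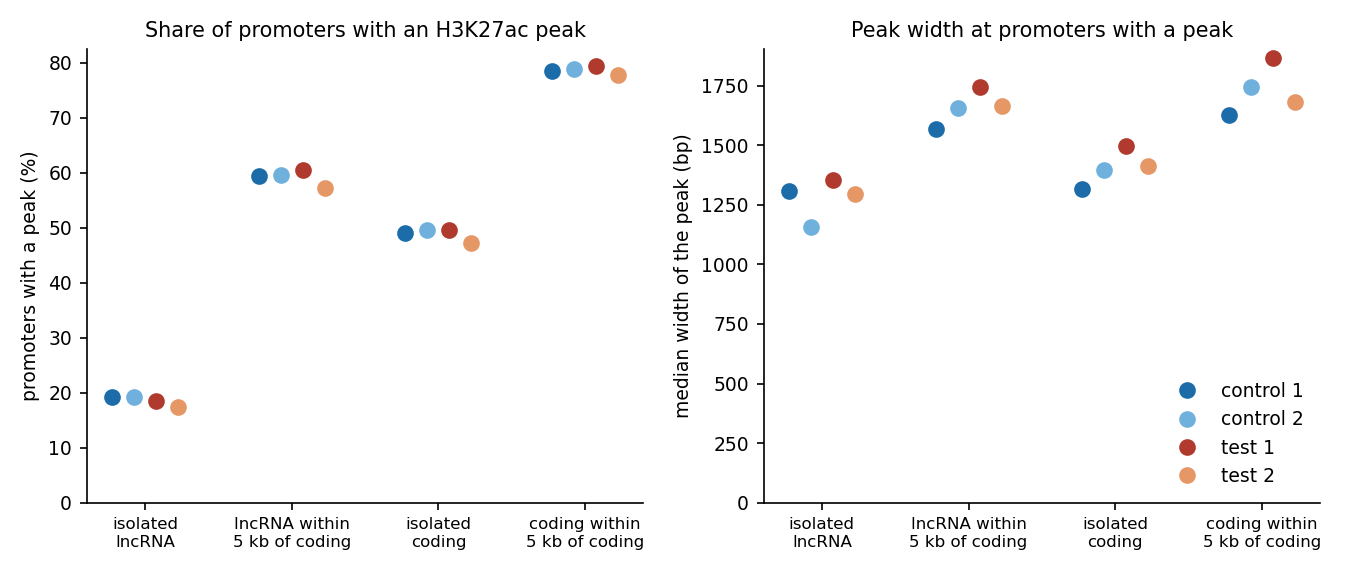
Share of promoters with an H3K27ac peak (left, percent) and median width of the widest peak among promoters with a peak (right, bp) for 4 sets of autosomal promoters, each point being 1 tumor. Isolated lncRNA promoters lie between 17.5% and 19.3%, below the 47.2% to 49.7% of isolated protein-coding promoters.

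Control tumors had 19.3% ± 0 and test tumors 17.97% ± 0.691 of members with a peak (SD, n = 2 each), a difference of -1.30 percentage points. The groups did not overlap, and the exact permutation test gave p = 0.333, the smallest it can give. They overlapped when a peak had to cover the TSS base (difference -0.517, exact permutation p = 0.667). With the same number of intervals taken from each list, the widest 59762, the difference was -0.569 percentage points, and without test 2 it was -0.816. The mean share of the 2 kb window that lay in peaks was 10.3%, 9.84%, 9.95% and 9.18%, and here the groups overlapped (difference -0.483 percentage points, exact permutation p = 0.667, and -0.0988 without test 2). The difference of members from isolated protein-coding promoters was -29.9, -30.3, -31.2 and -29.7 percentage points, also overlapping between groups (exact permutation p = 1). On this scale of percentage points, no difference between control and test tumors that was particular to lncRNA promoters was therefore shown. As numbers with a peak, group means were 1322 in control and 1232.5 in test tumors at members. At isolated protein-coding promoters they were 8232 and 8079. In proportion the fall was larger at members, and this was not tested.

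The difference in number lay among narrow peaks, at members as at promoters in general. Members whose widest peak was under 500 bp numbered 311, 336, 286 and 260, without overlap of the groups (exact permutation p = 0.333). Those with a peak of 500 bp to 1 kb numbered 228, 264, 219 and 216, again without overlap. Those with a peak of 1 to 5 kb numbered 667, 629, 646 and 646, and here the group means of 648 and 646 were nearly equal. Peaks of 5 kb or wider stood over 116, 93, 115 and 77 members. Over all autosomal promoters, peaks under 500 bp stood at 1835, 1745, 1476 and 1539, a change in the group mean of -15.8%, against -15.6% at members. The fewer narrow peaks in test tumors were therefore not particular to lncRNA promoters, and whole lists had median interval widths of 565, 557, 620 and 646 bp. Counting peaks at least 1 kb wide, the difference in the share of members with a peak was -0.153 percentage points, and the groups overlapped (exact permutation p = 1).

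**Figure D2:**
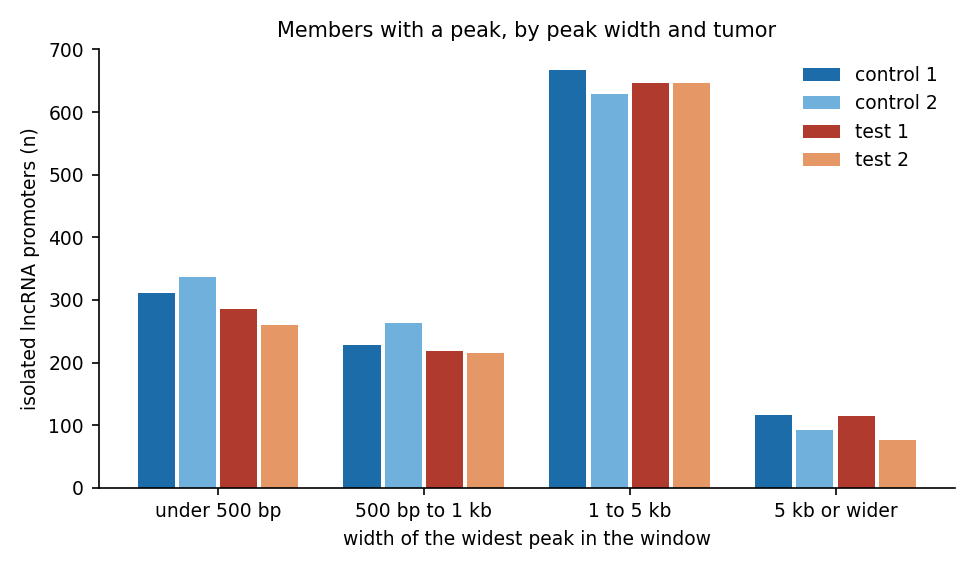
Number of isolated lncRNA promoters with a peak (vertical axis) by the width of the widest peak in the window (horizontal axis), 1 bar per tumor. Both control tumors stand above both test tumors in the 2 classes under 1 kb, and the groups overlap in the 2 wider classes.

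Median peak width at members was 1307, 1158, 1356 and 1296 bp, against 1317, 1395, 1498 and 1411 bp at isolated protein-coding promoters. The members' median was narrower in each tumor, with differences of -238 to -10 bp (mean -126 ± 93.5 bp, SD, n = 4, exact sign-flip permutation p = 0.125). This direction turned among promoters whose TSS base itself was covered, where the members' peaks were wider by 125 bp, and among peaks at least 1 kb wide, where they were wider by 279 bp. With an overlap of at least 200 bp with the window the mean difference was -23.8 bp (exact sign-flip permutation p = 0.625), so the narrower width was not held in every tumor. A peak lay over the TSS base at 63.3%, 59.6%, 63.9% and 62.1% of members with a peak, against 67.2% to 75.4% for isolated protein-coding promoters.

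Acetylation was centered close to the annotated start. In 100 bp bins, the share of members covered was highest 150 bp downstream of the TSS, at 12.7%, 12.8%, 12.1% and 11.5%. It was 3.93% to 4.63% at 4 to 5 kb, so the center stood 2.66 to 2.94 times above its flanks. Isolated protein-coding promoters were highest 250 bp downstream, at 40.7% to 43.7%, which was 8.83 to 10.7 times their flanks. Coverage of the downstream kilobase over that of the upstream kilobase was 1.14 to 1.20 at members and 1.502 to 1.56 at protein-coding promoters, so peaks at members were the more even about the TSS in every tumor.

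**Figure D3:**
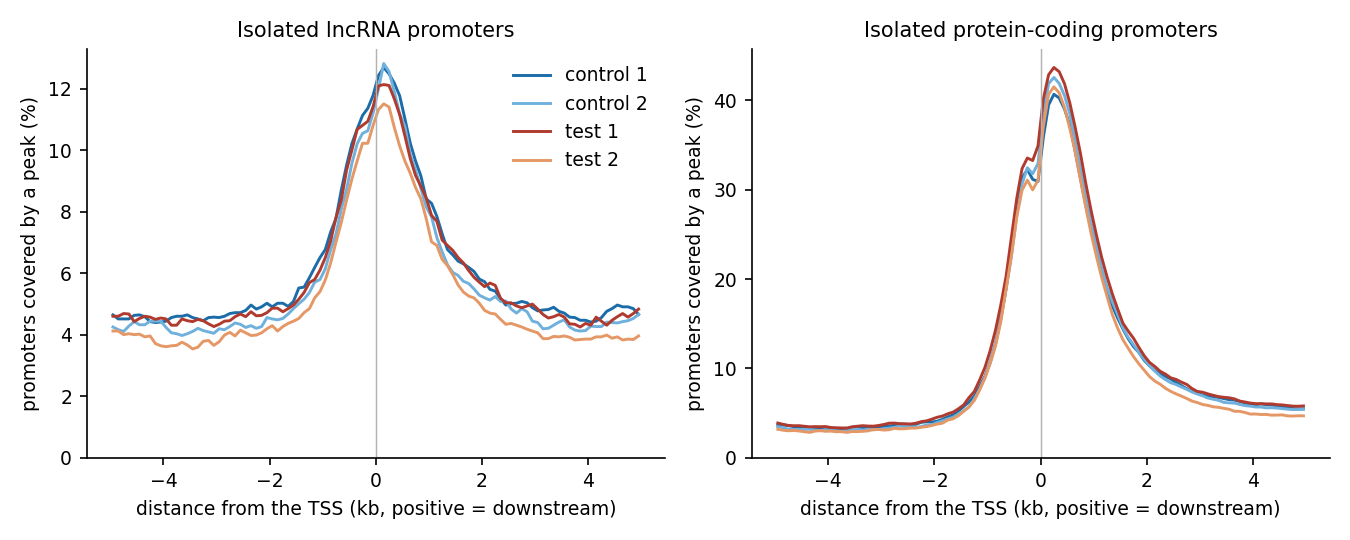
Percent of isolated lncRNA promoters (left) and isolated protein-coding promoters (right) covered by a peak against distance from the TSS in kb, 1 line per tumor, with different vertical scales. The lncRNA lines reach 11.5% to 12.8% and the protein-coding lines 40.7% to 43.7%.

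Most members had no peak, and those that had one varied between tumors. No peak was found in any tumor at 5260 members (76.7%). Of the 1600 with a peak, 979 had one in every tumor, 207 in 3 tumors, 158 in 2 and 256 in a single tumor. The 979 were 14.3% of members, against 42.6% of all autosomal promoters with a peak in every tumor. Given a peak in some tumor, it was present in all 4 at 61.2% of members and at 84.3% of isolated protein-coding promoters. Per tumor, 74.1%, 74.1%, 77.3% and 81.7% of the members with a peak had one in the other tumors as well, which differed from isolated protein-coding promoters by -14.6 ± 2.14 percentage points (SD, n = 4, exact sign-flip permutation p = 0.125). This gap was -16.8, -16.1, -12.6 and -12.98 percentage points, smaller in both test tumors by 3.66 points. Each share divides the same promoters, those with a peak in every tumor, by the tumor's own number with a peak. The smaller gap in test tumors thus follows from their numbers of peaks and is not a separate difference between the groups. The most frequent incomplete pattern was a peak in every tumor but test 2, at 119 members.

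Base composition moved with the mark. Only 238 members (3.47%) were CpG-rich, against 34.0% of isolated protein-coding promoters. A peak was present in every tumor at 53.8% of CpG-rich and 12.9% of CpG-poor members, and at 75.4% and 28.8% of the protein-coding promoters. Of the members acetylated in every tumor, 13.1% were CpG-rich, compared with 4.51% of those with a peak in 1 to 3 tumors and 1.56% of those with none. Among promoters with a peak in some tumor, the share with it in every tumor was 82.1% for CpG-rich and 58.9% for CpG-poor members, and 91.3% and 76.4% for protein-coding promoters, so members were lower in both classes.

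Of the letters searched, GGGCGG occurred in 35.7% of all autosomal promoters of this length, in 9.85% of members, in 22.4% of members with a peak in every tumor and in 7.24% of those with none. TATAAA occurred in 13.1%, 15.9%, 11.5% and 17.1% of the same groups of promoters. TGANTCA occurred in 7.69% of all promoters, 10.6% of members, 11.03% of those acetylated in every tumor and 10.2% of those without a peak. Thus GGGCGG was more frequent in acetylated members, TATAAA less frequent, and TGANTCA about as frequent. In members with a peak in every tumor and in none, TGACGTCA occurred in 1.94% and 0.608%, and CCGGAAGT in 2.15% and 0.989%. CACGTG occurred in 7.05% and 5.21% of these, and TTCNNNGAA in 11.4% and 9.64%. CCAAT went the other way, at 32.3% and 37.7%.

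The share of members with a peak in every tumor also moved with place and gene type. It was 24.1% for processed_transcript, 15.9% for antisense and 12.7% for lincRNA genes. It was 16.8% for members inside a coding gene on the opposite strand, 13.5% outside and 10.7% inside on the same strand. By distance to the nearest coding TSS it was 21.1% at 5 to 10 kb, 17.4% at 10 to 20 kb, 17.03% at 20 to 50 kb, 16.3% at 50 to 100 kb, 12.2% at 100 to 200 kb and 5.67% beyond 200 kb. Where the nearest coding promoter had a peak in every tumor the share was 18.7%, and where it had none, 7.58%. Thus 193 members were acetylated in every tumor although the nearest coding promoter, taken at the 5′ end of its gene, had no peak in any. Other starts of these coding genes were not examined here. Members with a symbol other than a Gm, Rik or clone name had a peak in every tumor in 24.7% of 292 cases, against 13.8% of 6568.

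The next question was which lncRNAs with a known role were among the acetylated promoters. The 8 lists held 49 members, of which 28 had a peak in every tumor and 15 in none. For comparison, a peak in every tumor was found at 14.3% of all members and 42.6% of all autosomal promoters. In control 1, control 2, test 1 and test 2, 32, 32, 30 and 30 of the 49 had a peak.

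Of 10 nuclear and chromatin lncRNAs, 7 had a peak in every tumor. Neat1, the scaffold of nuclear paraspeckles, had its window covered to 100% in each tumor by a peak of 17763, 19971, 20154 and 20270 bp. This peak also held the start of Frmd8os. Malat1, an abundant RNA of nuclear speckles (chromosome 19, TSS at 5802672), was likewise covered to 100% in each tumor, with peaks of 11507, 9915, 11379 and 9942 bp. Kcnq1ot1, the antisense RNA that silences an imprinted cluster, was covered to 61.6%, 67.0%, 53.1% and 50.1%, with both control tumors above both test tumors. Airn, which does the same at Igf2r, was covered to 79.0%, 46.5%, 34.2% and 67.7%, with the groups overlapping. Miat and Hotair had no peak in any tumor, and Rmst, a neural lncRNA, had one in control 1 alone.

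SnoRNA hosts carry snoRNAs in their introns and are transcribed in most dividing cells. Peaks stood in every tumor at 10 of 11, and Snhg14, the imprinted host at the Snurf locus, had none. The list took every symbol starting with Snhg, so the 10 include Snhg7os, typed antisense. Whether Snhg7os holds a snoRNA was not checked. Window coverage of Snhg8 was 100%, 89.8%, 100% and 90.0%, in the same order of tumors. That of Dancr was 77.4%, 73.4%, 75.4% and 82.3%, and that of Snhg12 69.5%, 62.7%, 67.0% and 49.5%. Snhg20 was the lowest of the 10, at 31.9%, 35.2%, 41.6% and 41.5%, with both test tumors above both control tumors. The mean coverage of the list was 65.9%, 67.4%, 71.9% and 64.5%.

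Of 6 proliferation and p53 lncRNAs, 5 had a peak in every tumor, the exception being Pantr2. Pvt1, the neighbor of Myc (chromosome 15, TSS at 62037986), was covered to 64.3%, 65.4%, 64.3% and 65.1%, while its peak was 6322, 4303, 2880 and 2350 bp wide. The peak was thus wider in both control tumors than in both test tumors although coverage of the window lay between 64.3% and 65.4% in each. Lockd, which starts 8691 bp from Cdkn1b, the gene of the cell cycle inhibitor p27, was covered to 100%, 100%, 87.1% and 100%. The widest peak in its window, of 14841, 14694, 9696 and 11051 bp, covered the TSS of Cdkn1b in every tumor. It also covered that of Lockd in 3 tumors, while in test 1 it ended before the Lockd start, which lay in a separate peak. Trp53cor1 (lincRNA-p21), which starts 11797 bp from Cdkn1a, was covered to 94.5%, 92.8%, 91.6% and 92.1%. Lncpint, a p53-induced RNA, was covered to 100% in 3 tumors and to 76.5% in test 2, where its peak was 1530 bp wide against 6704 to 7062 bp in the others.

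Of 3 epithelial and mammary lncRNAs, Pinc, named for its induction by pregnancy in the mammary gland (chromosome 1, TSS at 73407569), was covered to 85.6%, 61.4%, 84.1% and 81.9%. Neat1 was the other with a peak in every tumor, and Wincr1 had none. Of 7 imprinted lncRNAs, 2 had a peak in every tumor, and H19, Meg3, Mirg and Snhg14 had none. Of 9 mesenchymal and endothelial lncRNAs, 3 had a peak in every tumor: the neighbors Carmn and Bvht, both covered to 100% in each tumor, and Dubr at 57.9%, 68.9%, 54.4% and 71.9%. The peak of Carmn was 7982, 5942, 4870 and 3605 bp wide, wider in both control tumors, and that of Bvht 10297, 9487, 9778 and 9642 bp, with the groups overlapping. Fibroblast and endothelial marker promoters were also covered less in the test tumors, and their part in the width of Carmn was not tested. Dnm3os, which carries miR-199a-2 and miR-214 of mesenchymal cells, was covered to 5.60%, 27.7%, 9.75% and 0%.

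Immune lncRNAs were mixed. Of 5 members, 2 had a peak in every tumor, 1 had none, and Ptgs2os2 and Mirt1 had a peak in each control tumor but in neither test tumor, a pattern found at 0.603% of all autosomal promoters. Ptgs2os2, which starts 64917 bp from Ptgs2, the gene of cyclooxygenase 2, was covered to 18.7% and 44.4% in the control tumors. Mirt1 was covered to 7.996% and 14.3%, by narrow peaks of 160 and 287 bp. Mir155hg, of the same list, went the other way, with coverage of 21.4%, 21.2%, 24.5% and 36.9%. AW112010, an interferon-induced RNA of immune cells, was covered in every tumor, to 19.3%, 40.5%, 27.4% and 23.1%.

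Hosts of miRNAs were described next. By position on the same strand, a grouping added after the data were examined, 51 members held 91 miRNA genes of RefSeq. Of these hosts 19 (37.3%) had a peak in every tumor, against 14.1% of the 6809 other members and 42.6% of all autosomal promoters, a difference that was not tested. Of the rest, 27 had no peak, and 0 were control-only or test-only, patterns found at 0.603% and 0.307% of all autosomal promoters. In control 1, control 2 and test 1, 21 of the 51 had a peak, and in test 2, 22. The hosts named in the next 2 paragraphs that are not on the lists above were chosen after their values were seen.

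Gm15884, the host of miR-200c and miR-141, which maintain the epithelial state by targeting Zeb1 and Zeb2, was covered to 100% in each tumor, with peaks of 4973, 5822, 5505 and 5921 bp. Its TSS lay 6495 bp from the nearest coding TSS. 4631405K08Rik, the host of miR-205 of basal and mammary epithelium, was also covered to 100% in each tumor, with peaks of 4807, 4432, 5392 and 3815 bp. Lncppara, the host of let-7b and let-7c-2, was covered to 100% in each, with peaks of 18331, 18506, 18598 and 8302 bp, the narrowest in test 2. 6720427I07Rik, the host of let-7a-1, let-7d and let-7f-1, was covered to 67.6%, 78.3%, 86.6% and 81.9%. A330023F24Rik, the host of miR-29b-2 and miR-29c, which target collagen messages, was covered to 52.6%, 37.9%, 51.5% and 53.6%. These hosts were acetylated in tumors of both groups.

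Mir17hg, the host of the oncogenic miR-17 cluster, was covered to 21.3%, 35.6%, 34.4% and 34.2%. Mir155hg, the host of miR-155 of activated immune cells, had the higher coverage in both test tumors, as given above. The same mature miR-9 is encoded at 3 hosts, of which C130071C03Rik (miR-9-2) was covered to 100% in each tumor, while Gm3764 (miR-9-1) and Mir9-3hg had no peak in any. Hosts without a peak in any tumor also included Gm28653, which carries miR-206 and miR-133b of skeletal muscle, Gm26871, which carries miR-137 of neurons, and Mirg, which carries 14 miRNA genes of the imprinted Dlk1-Dio3 region.

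**Figure D4:**
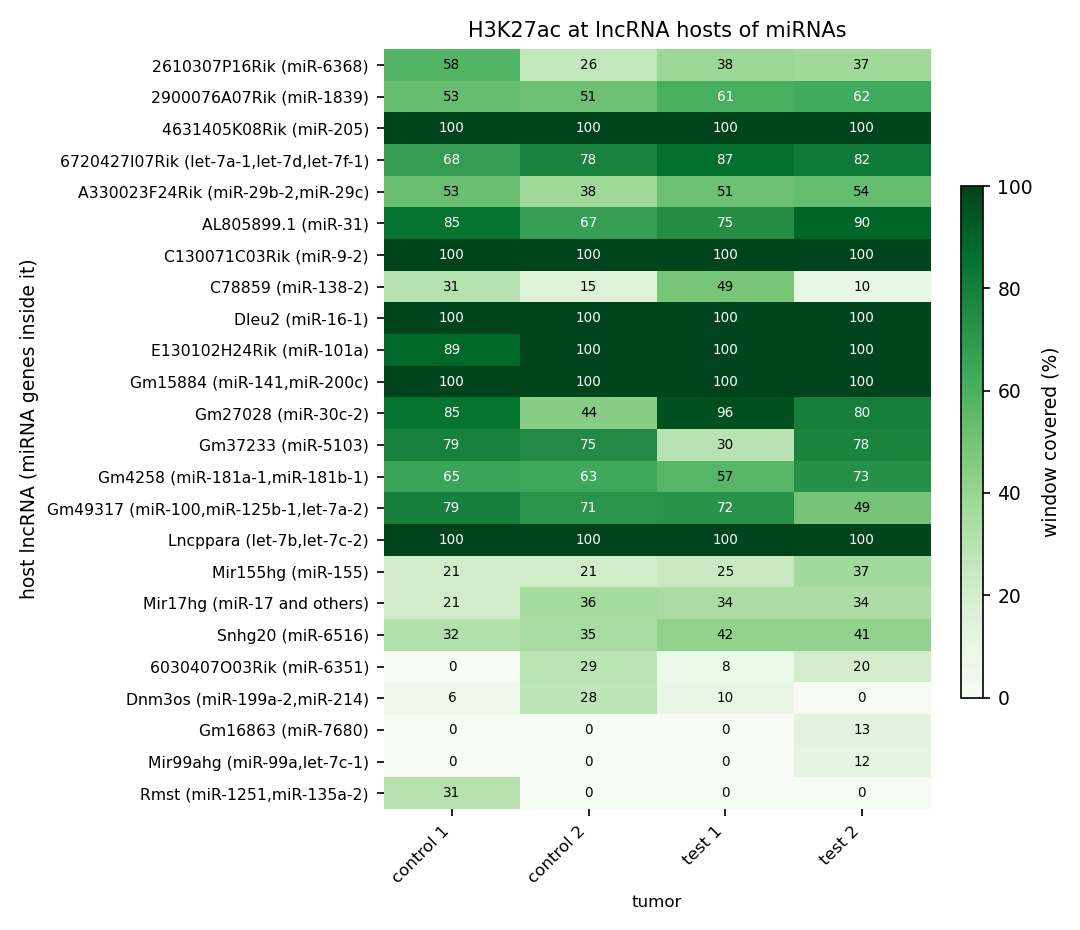
Window coverage in percent (color and number) at the 24 lncRNA hosts of miRNAs that had a peak in some tumor, with the miRNA genes inside each host in brackets and 1 column per tumor. The 19 hosts at the top had a peak in every tumor, and Gm15884 and 4631405K08Rik were covered to 100% in each.

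The last comparison asked which members were acetylated in tumors of a single group. Control-only members, with a peak in both control tumors and neither test tumor, numbered 52 (0.758% of members), against 0.603% of all autosomal promoters. Test-only members numbered 18 (0.262%), against 0.307%. Of the 1600 members with a peak, control-only ones were 3.25% and test-only ones 1.13%, and at isolated protein-coding promoters with a peak these shares were 1.14% and 0.5997%. Without test 2 the numbers were 86 control-only and 58 test-only, and without test 1 they were 171 and 100. Without control 1 they were 124 and 43, and without control 2 they were 114 and 47. The order of the 2 numbers was therefore kept when each tumor was left out, while their size was not. When peaks at least 1 kb wide were counted, they were 21 and 22, and with the same number of intervals from each list 43 and 27.

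Most of these peaks were narrow and lay beside the start rather than over it. Control-only members had a median peak width of 299 bp in control 1 and 365 bp in control 2, test-only members 270.5 bp in test 1 and 479.5 bp in test 2, and members with a peak in every tumor 1672, 1588, 1699 and 1538 bp. The narrowest interval in each list was 155 to 166 bp. A peak lay over the TSS base at 15.4% and 13.5% of control-only members in the control tumors, and at 74.97%, 72.1%, 74.5% and 70.0% of the members acetylated in every tumor.

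Of the control-only members, 33 (63.5%) lay outside coding genes and 18 (34.6%) inside on the opposite strand, against 72.6% and 25.6% of all members. The nearest coding promoter had a peak in every tumor for 27 of the 52 (51.9%), close to the 52.8% of all members, and it shared the control-only pattern for 0. The median difference in mean window coverage was 16.2 percentage points, and it was over 20 for 21 members. Of the marker lists, 4 had lower coverage in both test tumors than in both control tumors: mean window coverage of fibroblast marker promoters was 18.7%, 15.1%, 7.67% and 0%, that of endothelial markers 9.73%, 3.59%, 2.26% and 0%, that of myeloid markers 39.6%, 35.0%, 28.8% and 20.02%, and that of T cell markers 13.2%, 13.9%, 11.8% and 5.48%. Groups overlapped for luminal markers (85.9%, 81.1%, 83.8% and 83.6%), myoepithelial markers (15.9%, 1.52%, 12.1% and 0%) and adipocyte markers (2.16%, 1.45%, 3.74% and 0%). Of the T cell list, Cd3e, Cd3d, Cd3g, Cd4, Cd2 and Themis had no peak in any tumor, so its coverage came from the others. In mice with their own T cells, the paper reported many CD4+ T cells around tumors with the TSLP transgene and very few in controls. The part of the listed cell types in the control-only calls was not tested.

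Gm20750 (chromosome 3, 52906756 to 52927666, minus strand) had the largest control-only difference, with 79.4% of the window covered in control 1, 86.8% in control 2 and 0% in both test tumors. Its peaks of 1743 and 1737 bp lay over the CpG-rich promoter shown above, 89571 bp from Cog6. Gm26535 (chromosome 10, 37337486 to 37379652, plus strand), with the 2 TGANTCA matches, was covered to 64.8% and 75.4%. Gm17122 (chromosome 5, 113842601 to 113843116, plus strand) lies opposite to Coro1c, a gene of the actin cytoskeleton, and was covered to 46.0% and 63.3%. Gm27201 (chromosome 9, TSS at 32508413) lies opposite to Fli1, a transcription factor of blood and endothelial cells, and was covered to 59.6% and 49.2%. These 4 members were covered over a large part of the window in each control tumor.

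The other control-only members of the leading 10 were 2310067P03Rik, 2010013B24Rik, Gm49454, Ptgs2os2, Gm13710 and Gm46189, covered to between 18.7% and 66.4% in the control tumors. Gm13710 lies 54547 bp from Tfpi, the gene of an anticoagulant made by endothelium. The promoter of Tfpi had no peak in any tumor.

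Sap30bpos (chromosome 11, 115946450 to 115952105, minus strand) stood apart among the test-only members, with 0% of the window covered in both control tumors, 87.9% in test 1 and 100% in test 2. It lies opposite to Sap30bp, and its peaks were 3115 and 7365 bp wide. A330087D11Rik (chromosome 7, TSS at 29573928) was covered to 11.3% in test 1 and 55.4% in test 2. Gm32351 (chromosome 13, TSS at 94702718), whose promoter is CpG-rich, was covered to 18.8% and 44.4%, and Gm37229 (chromosome 3, TSS at 51812951) to 14.4% and 45.4%. Coverage was the larger in test 2, the tumor with the fewest intervals, at each of the leading 10 except Gm39375. The remaining members of the leading 10, Gm14091, Gm13546, Gm39375, Gm44386, A730020M07Rik and Gm49076, were covered to between 8.30% and 46.4%.

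**Figure D5:**
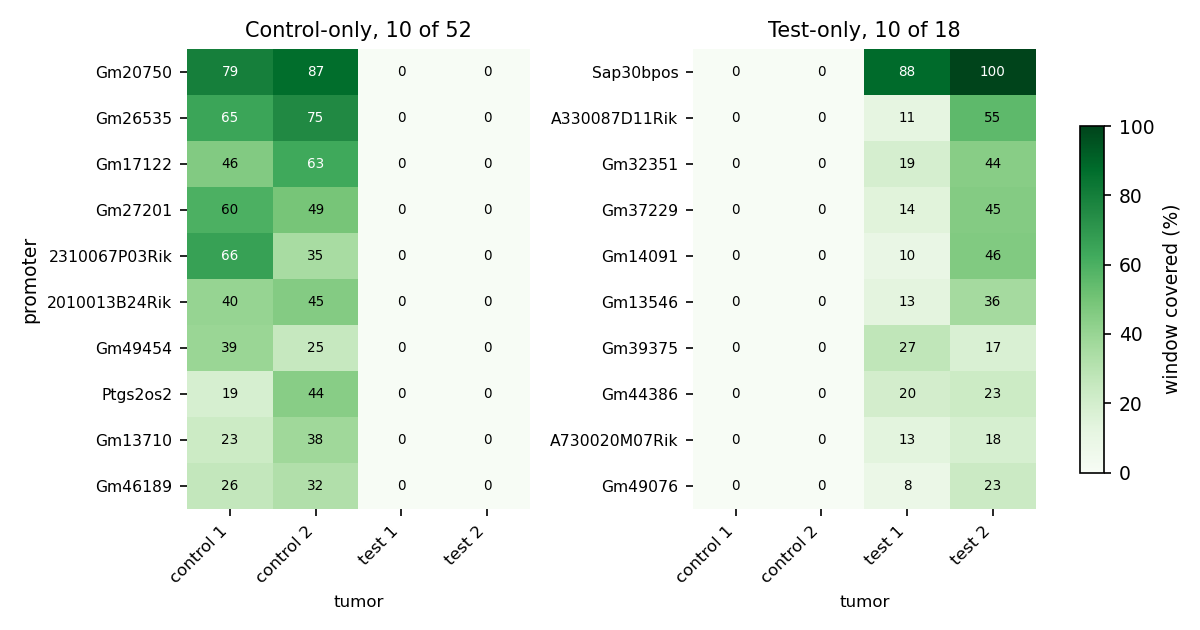
Window coverage in percent (color and number) of the 10 control-only (left) and 10 test-only (right) members with the largest difference in mean coverage, 1 column per tumor. Sap30bpos at 87.9% and 100% stands above the other test-only members, and Gm20750 at 79.4% and 86.8% leads the control-only members.

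Differences in extent were counted next, beside those at protein-coding promoters. Window coverage was higher in both control tumors than in both test tumors at 227 members (3.31%), against 5.12% of all autosomal promoters, and higher in both test tumors at 184 members (2.68%), against 10.1%. Of promoters with a peak, these shares were 14.2% and 11.5% for members, and 10.05% and 20.99% for isolated protein-coding promoters. Over the 1600 members with a peak, the median difference of test minus control coverage was -0.07 percentage points and the mean difference -2.07, and over isolated protein-coding promoters with a peak they were 1.09 and 1.24. The difference of members from isolated protein-coding promoters in mean window coverage was -19.01, -20.3, -21.6 and -19.97 percentage points, in the same order of tumors. The groups overlapped in this difference (exact permutation p = 0.667), so a change of this gap in percentage points between control and test tumors was not shown. Test minus control, mean window coverage differed by -0.483 points at members and 0.656 at isolated protein-coding promoters, with overlapping groups in each. The ratio of the coverages of these sets was not tested.

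The widest peaks at members were domains found in every tumor. Gm16907 (chromosome 13, TSS at 63297147), inside Fancc and 2010111I01Rik, stood in a peak of 33946, 42968, 34279 and 28892 bp. Gm26698, which starts 7769 bp from Irf2bpl, stood in peaks of 20750 to 23632 bp that covered the Irf2bpl TSS in every tumor. 1200007C13Rik stood in peaks of 32539, 14688, 32519 and 4480 bp, the narrowest again in test 2. Gm26688 lies opposite to Tfap2a, the gene of the AP-2 alpha factor of epithelia, in peaks of 12846 to 15760 bp that covered the Tfap2a TSS in every tumor, and Gm26725 opposite to Rbm47, an epithelial RNA-binding protein, in peaks of 16863 to 18638 bp. Gm29186, Gm14321, Gm26803, Lncppara and Frmd8os completed the 10, counting each peak once. Neat1 shares the peak of Frmd8os and therefore has the same widths. Each of the 10 had its whole window covered in every tumor, except Gm16907 at 75.1% in test 2.

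Genes on either side of the distance limit were mixed in their acetylation. The member closest to the limit, AW121686, started 5002 bp from Tcf20 and was covered to 0%, 86.1%, 39.5% and 3.598%, and the next, Gm39119 at 5015 bp and Gm15510 at 5027 bp, had no peak. Just under the limit, Gm15486 at 4993 bp had no peak, while Gm26669 at 4979 bp was covered to between 25.7% and 64.1% and AA465934 at 4973 bp to between 83.1% and 90.8%.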

How the data were processed

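Breast tumors of 4 mice were profiled by H3K27ac ChIP-seq, and groups were taken from the genotype per the labels. The authors aligned the reads with BWA to mm10 (the same assembly as GRCm38) and ran MACS2 on every tumor with its own input at a q-value of 0.01. The deposited lists hold a chromosome, start and end in base pairs, with joined caller peak names and no score, signal or p-value. The file names call the peaks cleaned and merged, and the cleaning is not given in the sources used here. The smallest gap was 201 bp in each list, and 0 intervals ran past a chromosome end. Depth is unknown, and a deeper library can give more and wider peaks. Inputs were not analysed here.

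TSSs were 5′ ends of GENCODE M21 genes, and of 2609 members with a RefSeq promoter of the same symbol, 62.1% had its start within 100 bp. A peak counted when it overlapped the 2001 bp window by at least 1 bp, and the widest such peak gave the width. Tests were two-sided exact permutations over tumors (scipy 1.17.1). The window code was tested on simulated data, with 0 mismatches. Named were 8 lists of lncRNAs, the 10 control-only and 10 test-only members with the largest coverage difference, the 10 widest, and 3 genes on each side of 5 kb. Members and lists were chosen with earlier results of these data known. Alternatives changed the window, the overlap, the peaks, the isolation distance and the members, and left out each tumor.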

Additional observations from a re-analysis of the deposited data

How the results depend on the processing

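The lower share with a peak in test tumors kept its direction under all 16 alternatives (-1.79 to -0.153 percentage points, the smallest with peaks at least 1 kb wide). The groups overlapped, however, with those peaks (exact permutation p = 1) and when a peak had to cover the TSS base (-0.517, p = 0.667). Direction was also kept by the lower mean coverage under 14 alternatives (-0.868 to -0.0988) and the gap to isolated protein-coding promoters under 16 (-32.1 to -22.0). The narrower peaks at members turned under 2 of 16 alternatives, to 125 bp wider when a peak had to cover the TSS base and to 279 bp wider among peaks at least 1 kb wide. The mean difference of -126 bp was smaller, and no longer negative in every tumor, with an overlap of at least 200 bp (-23.8 bp, exact sign-flip permutation p = 0.625), a window of 500 bp either side (-45.6 bp, p = 0.375), equal numbers of intervals per tumor (-74.4 bp, p = 0.25) and isolation over 2 kb (-81 bp, p = 0.25). The cause was not tested.

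Control-only members numbered 52, and 28 when a peak had to cover the TSS base, 21 with peaks at least 1 kb wide, 33 for members outside coding genes and 32 for lincRNA genes. Test-only members numbered 18, and 28 with a 2 kb window, 11 outside coding genes and 10 for lincRNA genes. Members with a peak in every tumor numbered 979, and 577, 542 and 583 when the TSS base had to be covered, with peaks at least 1 kb wide and for lincRNA genes. Restricting members to those outside coding genes (4981) or to lincRNA genes (4587) leaves fewer promoters by construction. With isolation measured against every transcript start of protein-coding genes, 6190 members remained. Of these, 46 were control-only, 14 were test-only and 819 had a peak in every tumor. Leaving out each tumor in turn gave 86 to 171 control-only and 43 to 100 test-only members, since a group then needs agreement of fewer tumors, and 1004 to 1098 members with a peak in every remaining tumor. With a lone tumor in a group no test was made. No paired analysis was possible because the tumor numbers follow the order of the samples and pair nothing.

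Only position and width of peaks were available; the strength of acetylation was not measured, and depth is unknown. With 2 tumors per group no p-value here can pass 0.05.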
